A study of Mus musculus with 10 samples.

Results

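The 40 genes described here encode the machinery of fatty acid oxidation and ketone use in the mouse heart, from the activation of long-chain fatty acids to the receptors that regulate the pathway. They were taken by gene symbol from the deposited count table, which holds 31655 Ensembl gene IDs, and all 40 were matched to an ID. Transcripts were measured by RNA sequencing of heart tissue in 2 groups of 5 libraries. Mice of both groups received lipopolysaccharide (LPS), a bacterial outer membrane component that causes systemic inflammation, at 10 mg/kg in a single intraperitoneal injection, to model septic cardiomyopathy. For 14 days before it, the baicalin plus LPS group was gavaged with baicalin, a plant flavone glucuronide, at 100 mg/kg, and the LPS group with distilled water. Hearts were collected 72 hours after the injection. The submitters planned 8 mice per group, and the labels do not give strain, sex or age, nor say which mouse a library came from. The tests therefore weigh differences against the variation among libraries, and some of that variation may be technical. The libraries carry the replicate numbers 1, 2, 3, 4 and 5 in the LPS group and 1, 2, 3, 5 and 7 in the baicalin plus LPS group. Values are given in this order throughout. The saline group of the same design was not analysed here, so every level is that of an LPS-injected heart.

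The heart muscle draws most of its ATP from fatty acids. An acyl-CoA synthetase activates the fatty acid, the carnitine shuttle carries it across the mitochondrial membranes, and the enzymes of beta-oxidation shorten it stepwise to acetyl-CoA while electrons pass through the electron transfer flavoprotein to the respiratory chain. Ketone bodies made by the liver enter the same acetyl-CoA pool through a short route of their own. Lipid droplets store what is not burned, and PPAR nuclear receptors with their partner RXR and the coactivators PGC-1 alpha and PGC-1 beta are known to regulate the transcription of many genes of the pathway. In systemic inflammation, cardiac transcripts of the pathway are known to be lowered.

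Libraries held 39.4 to 75.7 M counts, of which mitochondrially encoded transcripts took 30.2% to 44.1%. Levels are given as CPM, the counts scaled to a common library size with TMM factors, or, where genes are compared with each other, as the deposited FPKM, which divides by gene length. In bulk tissue, fewer cells of a type and less RNA per cell cannot be told apart. Several libraries stood apart within their group. Baicalin plus LPS libraries 2 and 3 had 1147 and 331 CPM summed over 4 atrial markers, against 60.8 to 172 in the other 8 libraries, and were the pair of highest libraries for 4 of 4. They were also the highest pair for 7 of 8 fibroblast markers (sums of 1409 and 2095 CPM against 483 to 873), 7 of 9 macrophage markers (1201 and 1304 against 194 to 829.7) and 6 of 7 white adipocyte markers (15.1 and 13.6 against 0.449 to 5.21). LPS libraries 1, 2 and 3 had the 3 lowest levels for 8 of 8 neutrophil markers (sums of 2.18 to 5.37 CPM against 36.4 to 218) and low acute-phase transcripts, with 6.41, 5.45 and 5.28 CPM of Lcn2 against 135 to 1012 elsewhere. Saa3 lay at 1.32 to 2.37 CPM in these 3 libraries against 72.6 to 365, and Serpina3n at 11.4 to 14.7 against 234 to 935. LPS library 4 was the single highest library for 24.3% and the single lowest for 25.4% of the 16850 genes tested. It also had the lowest mitochondrial share, 30.2%. The heart muscle origin of the tissue showed in every library: 10 cardiomyocyte markers summed to 36515 to 74227 CPM, with LPS libraries 1, 2 and 3 the 3 highest for 6 of 10. None of the markers on these lists was at 0 in every library. Results are therefore given with all libraries and, where the value moved clearly or turned, also without baicalin plus LPS libraries 2 and 3 or without LPS libraries 1, 2 and 3. The part of these differences in the results below was not tested.

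The pathway was abundant in these hearts, and its members spanned a wide range of levels. Per length, 11 of the 40 genes had a mean above 100 FPKM over the 10 libraries and 9 a mean below 10. Acadl, the long-chain acyl-CoA dehydrogenase, had the highest mean at 432 FPKM, followed by the thiolase gene Acaa2 at 247, the medium-chain dehydrogenase gene Acadm at 185, the thioesterase gene Acot13 at 181, the flavoprotein subunit gene Etfa at 176, the triglyceride lipase gene Pnpla2 at 170.2 and the ketone transferase gene Oxct1 at 167 FPKM. From Acadm to Oxct1 the ranges over libraries overlapped, so neighbours in this order were not separated beyond their spread. The order also depends on the length taken for each gene, which was 2005 bases for Acadl and 8730 for Hadha. Before division by length, Hadha was the highest of the 40, at means of 1263 CPM with LPS and 1369 CPM with baicalin plus LPS. The regulators lay lower, from 3.77 FPKM for Ppard to 26.7 FPKM for Ppargc1a. Cpt1b, the carnitine palmitoyltransferase 1 of muscle, was listed at 1.32 FPKM and the flavoprotein subunit gene Etfb at 3.01 FPKM, the former below the liver isoform gene Cpt1a (11.6 FPKM) and the latter far below its partner Etfa. In the gene annotation, 81.4% of the exon bases of Cpt1b overlap a second protein-coding gene on the same strand, Gm44502, and 53.0% of those of Etfb overlap Gm45233. Both of these were not analysed here, and how reads falling in 2 genes were counted is not given in the sources used here. Whether this bears on the low values was not tested.

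**Figure D1:**
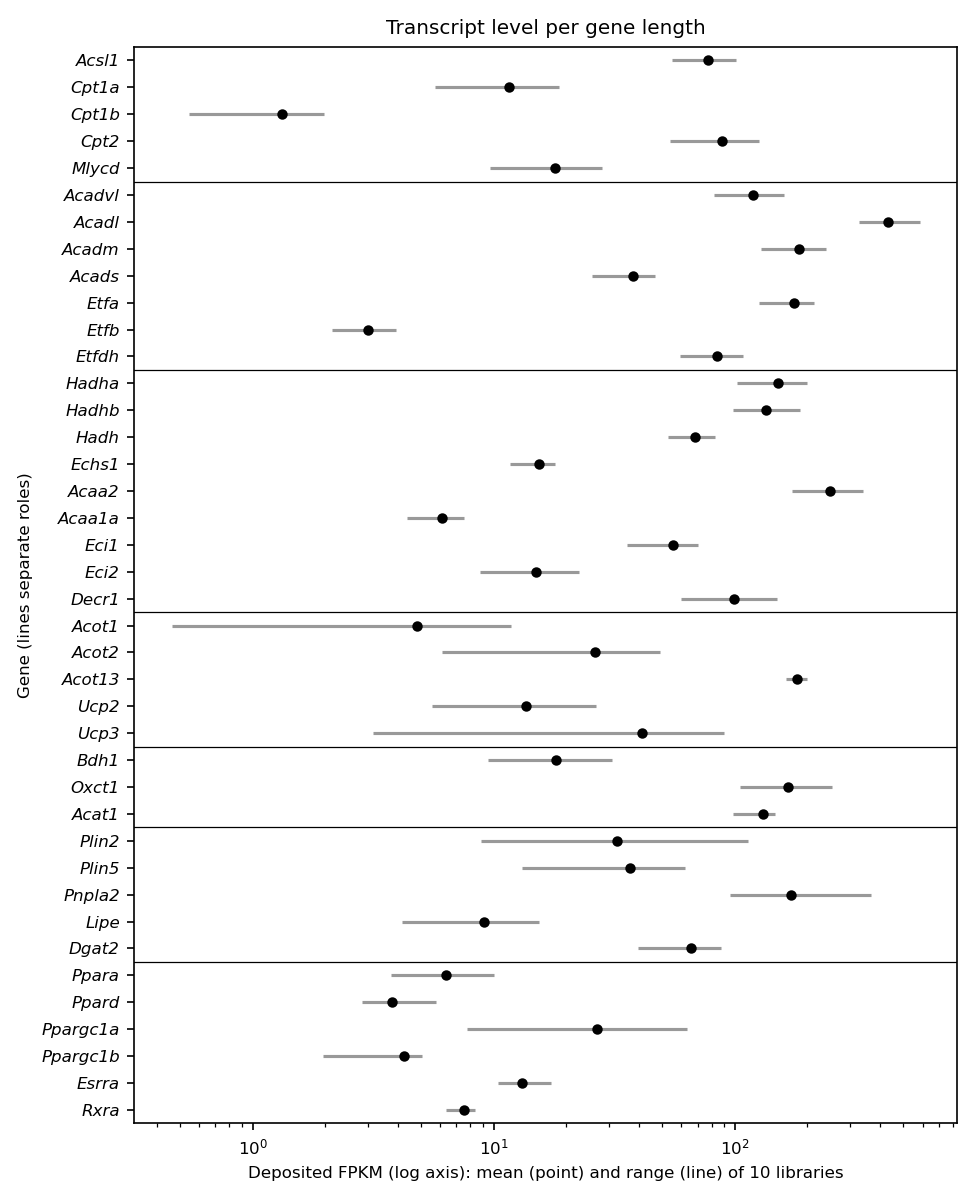
Deposited FPKM of the 40 genes on a log axis, with the mean as a point and the range over the 10 libraries as a line, and horizontal lines between roles. Acadl stands highest at a mean of 432 FPKM, Cpt1b and Etfb lie at 1.32 and 3.01 FPKM, and Acot1 and Ucp3 have the widest ranges.

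The comparison of baicalin plus LPS with LPS asks whether the pathway's transcripts differ in LPS-injected hearts when baicalin was given first. None of the 40 genes passed the edgeR quasi-likelihood test at an adjusted p of 0.05, and 0.0% of the 16850 genes tested did. Fold changes were negative, meaning lower with baicalin, in 29 members and positive in 11, with a median log2 fold change of -0.13, while over all genes 8519 of 16850 were negative and the median was -0.0038. At an unadjusted p under 0.05, 4 members were lower, among 5.88% of all genes in that direction, and 0 members were higher, among 5.26% of all genes. The 4 were Ppard, Dgat2, Acaa1a and Rxra. DESeq2, which called 1.58% of all genes, called 0 of the 40. Limma-voom with sample quality weights called 9 members lower and 2 higher, among 8.2% and 9.45% of all genes in these directions. The 2 higher were Decr1 and Ucp2, and the 9 lower were Echs1, Acaa1a, Bdh1, Oxct1, Dgat2, Ppara, Ppard, Ppargc1a and Rxra. The weights were 3.17, 2.33, 2.47, 0.160 and 0.485 in the LPS libraries and 1.87, 0.873, 0.691, 0.556 and 1.13 in the baicalin plus LPS libraries. That fit therefore compared baicalin plus LPS mainly with LPS libraries 1, 2 and 3. Bdh1, Oxct1, Ppara, Ppargc1a and Rxra were highest in these 3 libraries, and Ucp2 was lowest there. The CPM values of the groups overlapped in 40 of the 40 members, and did not in 2.46% of all genes. On the FPKM scale they did not overlap in 1 member, Dgat2, and in 1.63% of all genes.

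Without baicalin plus LPS libraries 2 and 3, most of the pathway's fold changes were positive. This pair was chosen with earlier results of these data known, and it was the lowest for 21 of 40 members. A rise in the fold changes of those members therefore follows from the choice. It also follows for members where the pair was the lowest of its own group only, as for Decr1. In that fit the fold change was positive in 29 members and negative in 11, with a median of 0.11, and 18 members changed sign. Over all genes, 8221 of 17277 were positive and the median was -0.019. Of the 17277 genes then tested, 0.0% passed the adjustment, and so did 0 members. At an unadjusted p under 0.05, 5 members were higher (Acadvl, Acadl, Hadha, Eci2 and Decr1, among 4.01% of all genes in that direction) and 3 lower (Acaa1a, Dgat2 and Ppard, among 5.43%). Leaving out baicalin plus LPS library 3 alone gave 20 negative and 20 positive members and a median of -0.0016, and leaving out library 5 alone gave 37 negative members and a median of -0.31. Leaving out LPS library 4 alone gave 26 negative members and a median of -0.14. At an unadjusted p under 0.05, 8 members were then lower and 0 higher, among 1597 and 1515 of 17191 genes. Without LPS libraries 1, 2 and 3, 0.0% of the 17965 genes tested passed the adjustment. At an unadjusted p under 0.05, 2 members were then higher (Oxct1 and Ppargc1b, among 4.8% of all genes) and 3 lower (Plin2, Pnpla2 and Ppard, among 7.25%). The median of the members was -0.087, with 25 negative, while over all genes the median was 0.045, with 45.8% negative. For 18 members the sign was opposite to that with all libraries.

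**Figure D2:**
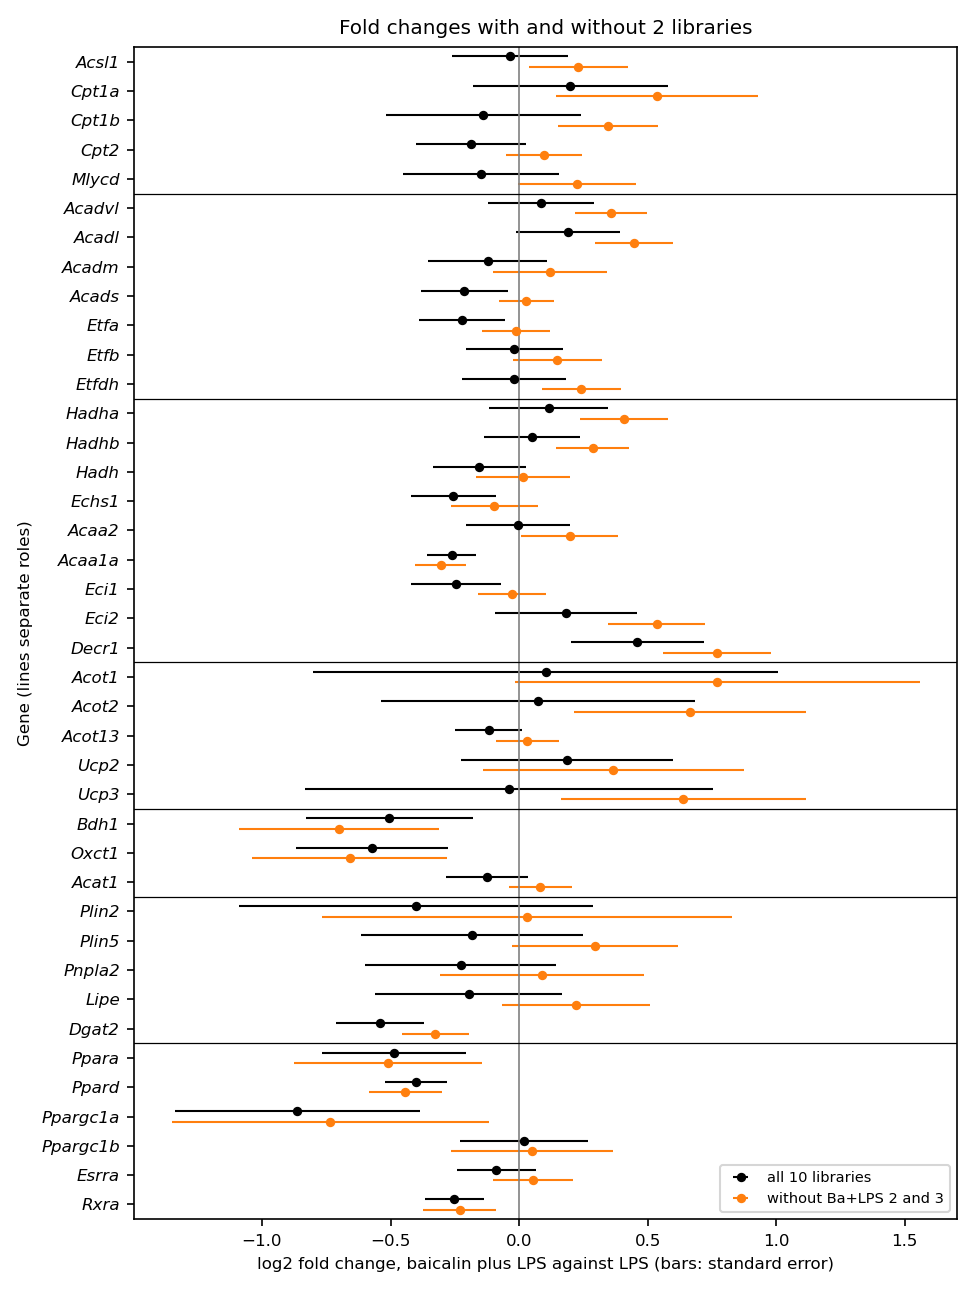
Log2 fold change of each of the 40 genes, baicalin plus LPS against LPS, from edgeR with all 10 libraries (black) and without baicalin plus LPS libraries 2 and 3 (orange); bars are standard errors and horizontal lines separate roles. The orange points lie to the right of the black ones for the shuttle, the dehydrogenases, the thioesterases and Ucp3, while Dgat2, Ppard, Acaa1a, Bdh1 and Oxct1 stay negative in both fits.

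Many of the members followed a pattern across libraries that ran within the baicalin plus LPS group. Baicalin plus LPS libraries 2 and 3 were the pair of lowest libraries for 21 of 40 members, against 9.41% of all genes, and the highest pair for 0. The single lowest library was baicalin plus LPS library 3 in 27 members (13.3% of all genes), and the single highest was library 5 of the same group in 18 members (11.8% of all genes). On the FPKM scale the same pair was lowest for 13 members, against 2.46% of all genes, and library 5 was the highest for 9 members (3.45% of all genes) and library 7 of that group for 11 (10.9%). In CPM the pair was lowest for 3 of 5 shuttle genes, 5 of 7 dehydrogenase and electron transfer genes, 5 of 9 genes of the later steps, 4 of 5 thioesterase and uncoupling genes, 1 of 3 ketone genes, 3 of 5 lipid droplet genes and 0 of 6 regulators. Outside the 40, this pair was lowest for 7 of 20 uptake and activation genes, 8 of 21 other regulators, 6 of 22 other droplet genes and 5 of 19 peroxisomal genes. It was lowest for only 3 of 24 genes of other mitochondrial acyl-CoA metabolism and 1 of 6 other ketone and monocarboxylate genes. The difference between these shares and that of the members was not tested. The pair was highest for 3 of the 22 droplet genes and for 1 gene each of the uptake, peroxisomal and ketone lists. Within the LPS group, libraries 1, 2 and 3 were the 3 highest for 5 members (12.5%, near the 9.55% of all genes) and the 3 lowest for 2 (5.0%, against 9.61%), so neither count is a result about the members as a group. The 5 were Bdh1, Oxct1, Ppara, Ppargc1a and Rxra, and the 2 were Plin2 and Ucp2. On the FPKM scale, LPS libraries 1, 2 and 3 were the 3 highest for 3 members (3.26% of all genes) and the 3 lowest for 4 (17.6%). From the lowest to the highest library, 28 members varied by more than 2-fold in CPM and 6 by more than 5-fold, which were Ucp3, Acot1, Ppargc1a, Plin2, Acot2 and Plin5.

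**Figure D3:**
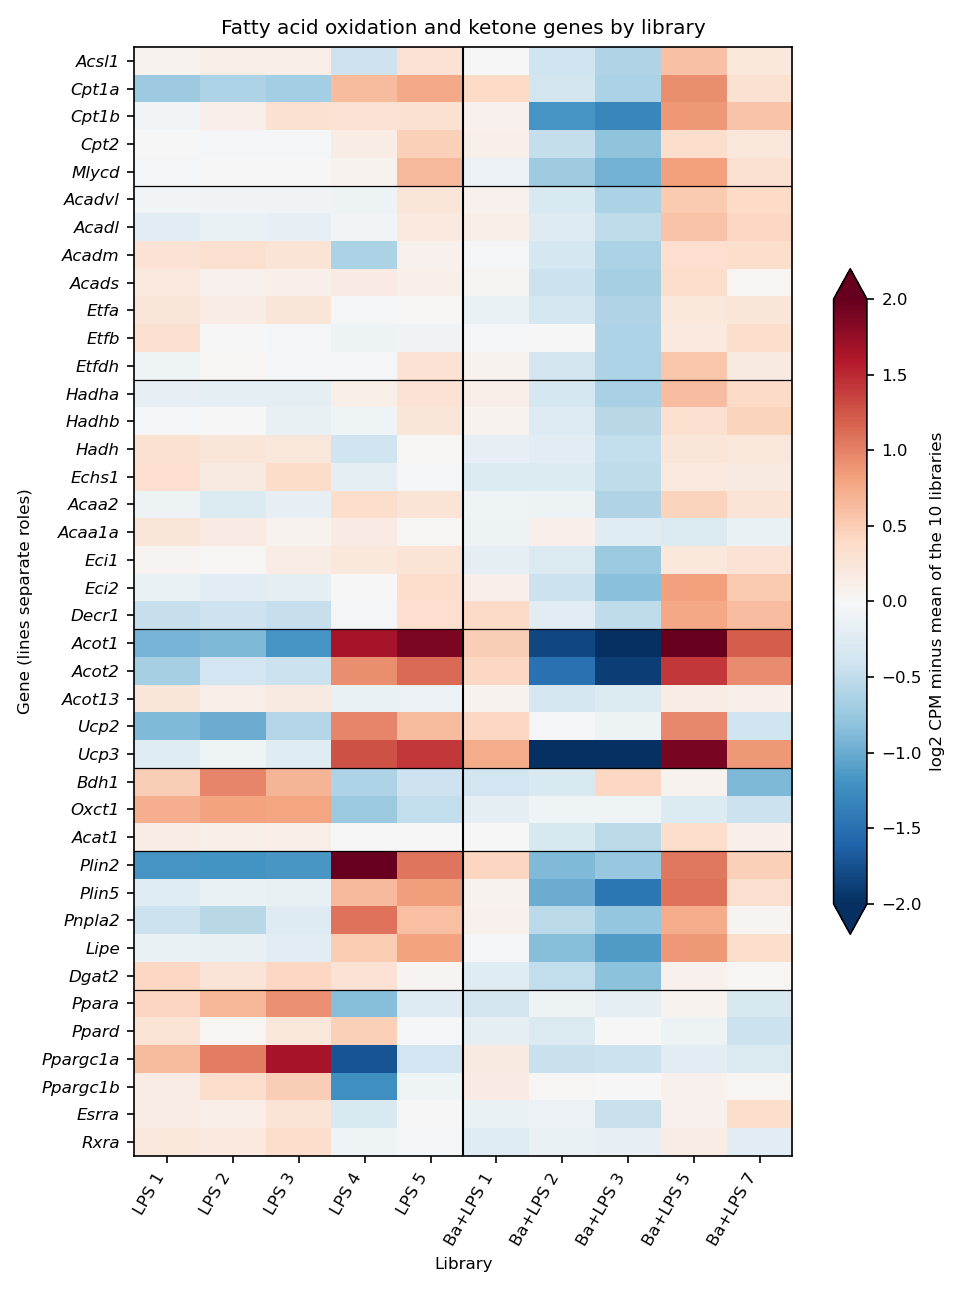
Log2 CPM of each gene in each library minus the mean of the gene over the 10 libraries; a vertical line separates LPS from baicalin plus LPS and horizontal lines separate roles. Baicalin plus LPS libraries 2 and 3 are blue over most of the oxidation genes and library 5 is red, while LPS libraries 1, 2 and 3 are red for the ketone genes Bdh1 and Oxct1 and for Ppara and Ppargc1a.

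PPAR and RXR are known to bind as a pair to a direct repeat of the half-site AGGTCA with 1 base between the copies. Of the 40 members, 33 had 1 or more promoters in the RefSeq table for GRCm38.p6, 38 promoters in all, each from 250 bases before to 50 bases after a start site. A match to AGGTCANAGGTCA on either strand with at most 2 mismatches was found in 5 of them (13.2%) and in 1266 of the 32815 promoters of that length in the table (3.86%). The extended half-site TCAAGGTCA, known as a site of estrogen-related receptors, was searched without mismatches on both strands and overlaps the former motif in its last 6 letters; it was found in 0 of the 38 and in 0.424% of all. The 5 matches lay in Etfa, Echs1, Ucp3, Plin2 and 1 of the promoters of Rxra, each beginning at position -77, -83, -51, -225 and -75 from the start site. Ucp3 and Plin2, the uncoupling protein and the droplet coat protein whose levels varied by 35.1-fold and 10.1-fold across libraries, are shown with the 250 bases before their start sites, 5′ to 3′ on the strand of the gene, with the match in capitals. They lie at chr7:100472741-100472990 on the plus strand and chr4:86670060-86670309 on the minus strand.
Ucp3: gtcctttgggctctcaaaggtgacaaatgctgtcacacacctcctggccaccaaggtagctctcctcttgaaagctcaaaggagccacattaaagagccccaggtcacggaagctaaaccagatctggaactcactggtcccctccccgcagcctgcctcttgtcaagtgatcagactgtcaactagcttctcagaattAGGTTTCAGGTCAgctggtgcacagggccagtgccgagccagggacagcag
Plin2: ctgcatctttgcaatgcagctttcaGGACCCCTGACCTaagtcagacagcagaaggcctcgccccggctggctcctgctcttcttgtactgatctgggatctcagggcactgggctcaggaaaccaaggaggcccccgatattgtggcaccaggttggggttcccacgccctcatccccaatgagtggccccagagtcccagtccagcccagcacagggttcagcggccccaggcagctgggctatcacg
The matches in the other 3 genes, whose levels varied by less, are shown with 8 bases on either side, from chr9:55512300-55512328 (minus strand), chr7:140116484-140116512 (minus strand) and chr2:27709209-27709237 (plus strand).
Etfa: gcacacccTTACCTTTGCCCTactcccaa
Echs1: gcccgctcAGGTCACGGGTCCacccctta
Rxra: ctgagtaaTGGTCATAGGCCAgtgggtgg
A match of letters is a description of the window and not evidence of binding, and a window without a match says only that these letters are not in it.

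Fatty acids are activated by Acsl1 and enter mitochondria through the carnitine shuttle. Of the 5 genes of this step, 4 had negative and 1 a positive fold change with all libraries, and 5 of 5 were positive without baicalin plus LPS libraries 2 and 3. Cpt1a, the isoform of the rate-limiting outer-membrane enzyme that is best known from liver, had 48.3, 52.0, 49.9, 123 and 135 CPM in the LPS libraries and 105, 62.0, 51.5, 152 and 98.8 CPM in the baicalin plus LPS libraries. Its levels in LPS libraries 1, 2 and 3 were close to those in baicalin plus LPS libraries 2 and 3, and the groups overlapped over most of their range. The log2 fold change was 0.20 ± 0.38 (SE, n = 5 per group, edgeR adjusted p = 0.883) with all libraries, 0.54 ± 0.39 without baicalin plus LPS libraries 2 and 3, and -0.45 ± 0.36 without LPS libraries 1, 2 and 3. Cpt2, which rebuilds acyl-CoA on the matrix side, had 208, 203, 201, 229 and 286 CPM in the LPS libraries and 219.9, 149, 118, 262 and 241 CPM in the baicalin plus LPS libraries. It was lowest in baicalin plus LPS libraries 2 and 3, while the other 3 libraries of that group lay within the LPS range. The log2 difference between groups was -0.19 ± 0.21 (SE, n = 5 per group, edgeR adjusted p = 0.781) and 0.10 ± 0.15 without that pair. Acsl1 had 831 ± 141 and 811 ± 269 CPM in the LPS and baicalin plus LPS groups (mean ± SD) and a fold change of -0.035 ± 0.22. Mlycd, which removes the CPT1 inhibitor malonyl-CoA, had 56.6 ± 12.7 and 51.1 ± 25.6 CPM (-0.15 ± 0.30). Cpt1b had 4.73 ± 0.519 and 4.30 ± 2.58 CPM (-0.14 ± 0.38), with the limit on its counting given above, and was lowest in the same pair.

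The acyl-CoA dehydrogenases take the first step of each beta-oxidation cycle, each for its own chain length, and hand their electrons to the flavoprotein of Etfa and Etfb and on to the ubiquinone reductase of Etfdh. Of these 7 genes, 5 were negative and 2 positive with all libraries, and 1 and 6 without baicalin plus LPS libraries 2 and 3. Acadl had 735, 776, 754, 819 and 969 CPM in the LPS libraries and 922, 712, 598, 1264 and 1129.6 CPM in the baicalin plus LPS libraries. Baicalin plus LPS libraries 5 and 7 lay above every LPS library and libraries 2 and 3 below every one. The fold change was 0.19 ± 0.20 (SE, n = 5 per group, edgeR adjusted p = 0.763) with all libraries and 0.45 ± 0.15 without libraries 2 and 3 (adjusted p = 0.438). Acads, for short chains, had 96.5, 89.7, 91.1, 94.6 and 91.1 CPM in the LPS libraries and 87.8, 63.1, 53.2, 108 and 87.3 CPM in the baicalin plus LPS libraries. The LPS libraries lay within a narrow band, and the baicalin plus LPS libraries spread to both sides of it, with the lowest again in libraries 2 and 3 and the highest in library 5. This gave a fold change of -0.21 ± 0.17 (SE, n = 5 per group, edgeR adjusted p = 0.674) and 0.028 ± 0.11 without that pair. Etfa had 379, 354, 379, 315 and 326 CPM in the LPS libraries and 293, 249.9, 211, 372 and 377 CPM in the baicalin plus LPS libraries. Libraries 5 and 7 of the baicalin plus LPS group reached the upper LPS values, while libraries 1, 2 and 3 lay below all of them. Its log2 fold change came to -0.22 ± 0.17 (SE, n = 5 per group, edgeR adjusted p = 0.646), and -0.013 ± 0.13 without libraries 2 and 3. Acadvl, for very long chains, had 311 ± 32.9 and 330.4 ± 104 CPM (0.085 ± 0.20; 0.36 ± 0.14 without the pair), Acadm 764 ± 178 and 702 ± 199 CPM (-0.12 ± 0.23) and Etfdh 643 ± 68.7 and 634 ± 201 CPM (-0.020 ± 0.20). Etfb had 3.54 ± 0.438 and 3.49 ± 0.811 CPM (-0.019 ± 0.19). Of the exon bases of Acadvl, 42.9% overlap Dvl2 on the opposite strand, which had 142 to 401 counts per library against 12277 to 27636 for Acadvl.

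The later steps hydrate, oxidise and cleave the chain, and auxiliary enzymes bring unsaturated fatty acids into the cycle. Of these 9 genes, 5 were negative and 4 positive with all libraries, and 3 and 6 without baicalin plus LPS libraries 2 and 3. Decr1, the dienoyl-CoA reductase for polyunsaturated chains, had the most positive fold change of the 40 members. It had 264, 275, 265, 354 and 462 CPM in the LPS libraries and 476, 315, 256, 625 and 558 CPM in the baicalin plus LPS libraries. Libraries 1, 5 and 7 with baicalin lay above all 5 LPS libraries, and libraries 2 and 3 within or just below the LPS range. The fold change was 0.46 ± 0.26 (SE, n = 5 per group, edgeR adjusted p = 0.540) with all libraries, 0.77 ± 0.21 without libraries 2 and 3 (unadjusted p = 0.00488, adjusted p = 0.382), and 0.14 ± 0.34 without LPS libraries 1, 2 and 3. Libraries 2 and 3 were the lowest of the baicalin plus LPS group, so the rise without them follows from the choice of libraries. Acaa1a, the peroxisomal thiolase, had 31.7, 29.8, 28.2, 29.9 and 27.0 CPM in the LPS libraries and 24.9, 28.5, 22.5, 21.8 and 24.4 CPM in the baicalin plus LPS libraries. All but library 2 of the baicalin plus LPS group lay below every LPS library. Its fold change was -0.26 ± 0.10 (SE, n = 5 per group, edgeR adjusted p = 0.342) with an unadjusted p of 0.0181, and -0.30 ± 0.10 without libraries 2 and 3. The exons of Acaa1a overlap those of Myd88 on the opposite strand over 6.57% of its bases, Myd88 had 356 to 2257 counts per library against 988 to 2071, and the use of strand is not given, so reads there cannot be told apart. Acaa1a also shares 12.4% of its 50-base words with its copy Acaa1b. Acaa2, the mitochondrial thiolase, had 339.7, 302, 324, 464 and 439 CPM in the LPS libraries and 345, 338, 239, 496 and 443 CPM in the baicalin plus LPS libraries. The groups overlapped over nearly the whole range, with a fold change of -0.0053 ± 0.20 (SE, n = 5 per group, edgeR adjusted p = 0.996). Hadha and Hadhb, the subunits of the trifunctional protein that lie head to head at chr5:30118304-30155162 and chr5:30155248-30184593 (GRCm38), had 1263 ± 199.6 and 1369 ± 472 CPM and 874 ± 92.1 and 905 ± 245 CPM and fold changes of 0.12 ± 0.23 and 0.050 ± 0.19, which were 0.41 ± 0.17 and 0.29 ± 0.14 without the pair. The isomerase genes went apart, with -0.25 ± 0.18 for Eci1 (-0.028 ± 0.13 without baicalin plus LPS libraries 2 and 3) and 0.18 ± 0.28 for Eci2 (0.53 ± 0.19 without the pair), a difference between genes that was not tested. Hadh had -0.16 ± 0.18 and the enoyl-CoA hydratase gene Echs1 -0.26 ± 0.17 (-0.10 ± 0.17 without the pair).

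Thioesterases release fatty acids from CoA, and the uncoupling proteins sit in the inner mitochondrial membrane, with Ucp3 known mainly from muscle and heart. Of the 40 members, Ucp3 and Acot1 had the widest spread between libraries. Ucp3, for which library values were chosen after they were seen, had 72.5, 80.3, 71.97, 208 and 227 CPM in the LPS libraries and 142, 16.6, 9.06, 318 and 155 CPM in the baicalin plus LPS libraries. It was high in LPS libraries 4 and 5 and in 3 of the baicalin plus LPS libraries, intermediate in LPS libraries 1, 2 and 3, and lowest in baicalin plus LPS libraries 2 and 3. The 35.1-fold span left a fold change of -0.039 ± 0.79 (SE, n = 5 per group, edgeR adjusted p = 0.992) with all libraries. It was 0.64 ± 0.48 without that pair and -0.75 ± 1.03 without LPS libraries 1, 2 and 3. Acot1, chosen in the same way, had 5.71, 5.81, 4.80, 34.3 and 39.8 CPM in the LPS libraries and 15.3, 3.06, 1.66, 52.2 and 25.1 CPM in the baicalin plus LPS libraries. It ranked the libraries much as Ucp3 did, at a fold change of 0.10 ± 0.90 (SE, n = 5 per group, edgeR adjusted p = 0.978) with all libraries and 0.77 ± 0.79 without the pair. Its neighbour Acot2, the mitochondrial enzyme, had 56.4 ± 33.4 and 59.3 ± 46.5 CPM (0.072 ± 0.61; 0.66 ± 0.45 without the pair). Acot1 at chr12:84009490-84018371 and Acot2 at chr12:83987861-83993873 share 13.6% and 24.5% of their 50-base words with each other, so reads may have been split between them. Ucp2, the broadly expressed family member also known from immune cells, had 45.3, 42.4, 56.0, 166 and 129.8 CPM in the LPS libraries and 112, 82.1, 78.2, 164 and 64.0 CPM in the baicalin plus LPS libraries. The 3 lowest were LPS libraries 1, 2 and 3, and the other LPS libraries were among the highest. The fold change came to 0.19 ± 0.41 (SE, n = 5 per group, edgeR adjusted p = 0.904) with all libraries, 0.37 ± 0.51 without baicalin plus LPS libraries 2 and 3 and -0.55 ± 0.33 without LPS libraries 1, 2 and 3, and these 3 were also the lowest for 8 of 8 neutrophil and 6 of 9 macrophage markers (macrophage sums of 194 to 229 CPM against 310.5 to 1304 elsewhere). In the baicalin plus LPS group the macrophage sums and Ucp2 did not run together. Libraries 2 and 3 had the highest sums, 1201 and 1304 CPM, with 82.1 and 78.2 CPM of Ucp2. Library 5 had the lowest sum of that group, 310.5 CPM, with 164 CPM of Ucp2. The part of neutrophils and macrophages in the Ucp2 values was not tested. Acot13, the most abundant of these 5 genes, had 159, 147, 153, 123 and 125 CPM in the LPS libraries and 141, 106, 111, 149 and 144 CPM in the baicalin plus LPS libraries. It varied by 1.50-fold in all, and its fold change was -0.12 ± 0.13 (SE, n = 5 per group, edgeR adjusted p = 0.771).

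Ketone bodies are used in 3 steps, by the dehydrogenase of Bdh1, the transferase of Oxct1, which the liver lacks, and the thiolase of Acat1. All 3 genes had negative fold changes. Oxct1 had 975, 1022, 1009.9, 349 and 417 CPM in the LPS libraries and 510.3, 550.4, 553, 485 and 437 CPM in the baicalin plus LPS libraries. LPS libraries 1, 2 and 3 were about level with each other and above all the rest, and LPS libraries 4 and 5 were the lowest of all 10. The fold change of -0.57 ± 0.30 (SE, n = 5 per group, edgeR adjusted p = 0.502) with all libraries became 0.41 ± 0.17 without LPS libraries 1, 2 and 3 (unadjusted p = 0.0368, adjusted p = 0.404). Bdh1 had 92.6, 130.5, 106, 43.2 and 49.7 CPM in the LPS libraries and 50.6, 53.4, 88.1, 69.3 and 35.7 CPM in the baicalin plus LPS libraries. The same 3 LPS libraries were highest, and the other 7 overlapped. Between the groups, the fold change was -0.51 ± 0.33 (SE, n = 5 per group, edgeR adjusted p = 0.592) with all libraries and 0.37 ± 0.30 without the 3. Acat1, which also serves isoleucine breakdown, had 539, 529, 536, 484 and 492 CPM in the LPS libraries and 490.5, 391, 337, 622 and 526 CPM in the baicalin plus LPS libraries. It followed the oxidation genes, with its lowest values in baicalin plus LPS libraries 2 and 3, and had a fold change of -0.13 ± 0.16 (SE, n = 5 per group, edgeR adjusted p = 0.804).

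**Figure D4:**
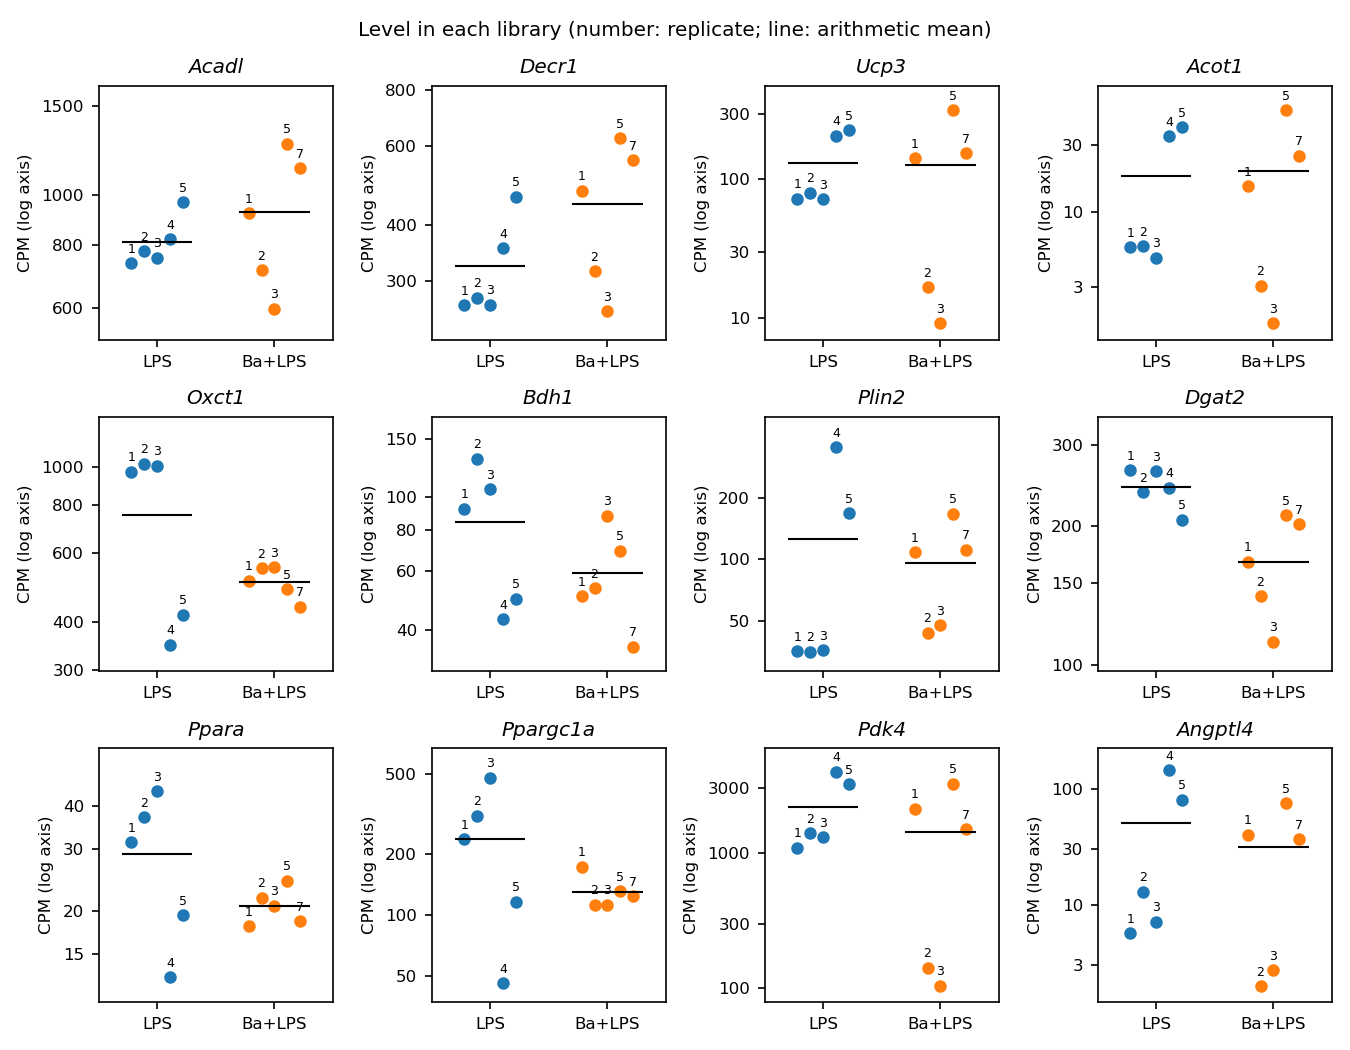
Level of 12 genes in each library in CPM on log axes, chosen after their values were seen; numbers are replicate numbers and the line is the arithmetic mean of the group. Oxct1, Bdh1, Ppara and Ppargc1a are highest in LPS libraries 1, 2 and 3, where Plin2 is lowest, and Ucp3, Acot1 and Pdk4 are lowest in baicalin plus LPS libraries 2 and 3.

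Lipid droplets are coated by perilipins, emptied by the lipases of Pnpla2 and Lipe, and filled by the acyltransferase of Dgat2, which completes triglycerides. All 5 genes of this role had negative fold changes with all libraries, and 4 of 5 were positive without baicalin plus LPS libraries 2 and 3. Dgat2 was the exception and the member with the second smallest p. It had 264, 237, 263, 242 and 206 CPM in the LPS libraries and 167, 141, 112, 211 and 202 CPM in the baicalin plus LPS libraries. Library 5 with baicalin was at the lower edge of the LPS range and the other 4 lay below it. The fold change was -0.54 ± 0.17 (SE, n = 5 per group, edgeR adjusted p = 0.308) with an unadjusted p of 0.00858, -0.33 ± 0.13 without libraries 2 and 3, and -0.42 ± 0.24 without LPS libraries 1, 2 and 3, so the sign was the same in each. Pnpla2, the triglyceride lipase ATGL, had 345, 315, 388, 992 and 705 CPM in the LPS libraries and 495, 321, 271, 775 and 482 CPM in the baicalin plus LPS libraries. LPS libraries 4 and 5 were high, and libraries 2 and 3 with baicalin lay near LPS libraries 1, 2 and 3. The log2 difference between groups was -0.23 ± 0.37 (SE, n = 5 per group, edgeR adjusted p = 0.855) with all libraries and -0.84 ± 0.36 without LPS libraries 1, 2 and 3 (unadjusted p = 0.0438). Plin2, chosen after its values were seen, had 35.4, 35.1, 35.8, 356 and 168 CPM in the LPS libraries and 108, 43.6, 47.4, 167 and 111 CPM in the baicalin plus LPS libraries. The values in LPS libraries 1, 2 and 3 were nearly equal and the lowest of all, and LPS library 4 was the highest. This gave a fold change of -0.40 ± 0.69 (SE, n = 5 per group, edgeR adjusted p = 0.865) with all libraries and -1.44 ± 0.49 without those 3. Plin5, the perilipin of oxidative tissues, had 82.0 ± 30.2 and 72.3 ± 47.8 CPM (-0.18 ± 0.43), and Lipe 57.4 ± 19.5 and 50.2 ± 27.6 CPM (-0.20 ± 0.36).

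The regulators act on the transcription of the enzyme genes, and baicalin plus LPS libraries 2 and 3 were the lowest pair for 0 of 6 of them. Of these genes, 5 had negative fold changes with all libraries and 4 without that pair. Ppard, the PPAR subtype delta, had the smallest p of the 40 members. It had 33.5, 28.6, 32.7, 38.9 and 27.2 CPM in the LPS libraries and 24.4, 22.8, 28.1, 25.9 and 20.7 CPM in the baicalin plus LPS libraries. Library 3 with baicalin overlapped the lower LPS values, and the other 4 lay below every LPS library. The fold change was -0.40 ± 0.12 (SE, n = 5 per group, edgeR adjusted p = 0.301) with an unadjusted p of 0.00663, -0.44 ± 0.14 without libraries 2 and 3, and -0.43 ± 0.17 without LPS libraries 1, 2 and 3. Ppargc1a, which encodes PGC-1 alpha, had 237, 310.1, 478, 46.0 and 116 CPM in the LPS libraries and 173, 112, 113, 131 and 124 CPM in the baicalin plus LPS libraries. LPS libraries 1, 2 and 3 were highest and LPS library 4 lowest of all 10, with the baicalin plus LPS libraries close together between them. The fold change was -0.86 ± 0.48 (SE, n = 5 per group, edgeR adjusted p = 0.530) with all libraries and 0.69 ± 0.33 without LPS libraries 1, 2 and 3. Rxra, the shared partner of the PPARs, had 54.8, 54.0, 60.5, 44.6 and 46.0 CPM in the LPS libraries and 39.9, 43.3, 42.3, 52.4 and 40.4 CPM in the baicalin plus LPS libraries. The groups overlapped through library 5 with baicalin, and the fold change was -0.25 ± 0.11 (SE, n = 5 per group, edgeR adjusted p = 0.448). Ppara, the subtype that dominates fatty acid oxidation in liver and heart, was chosen after its values were seen and had 31.4, 37.1, 44.0, 12.9 and 19.4 CPM in the LPS libraries and 18.1, 21.8, 20.6, 24.3 and 18.6 CPM in the baicalin plus LPS libraries. Like Ppargc1a, it was highest in LPS libraries 1, 2 and 3 and lowest in LPS library 4. Its log2 fold change came to -0.49 ± 0.28 (SE, n = 5 per group, edgeR adjusted p = 0.548) with all libraries and 0.36 ± 0.20 without these 3. Ppargc1b had 17.0 ± 6.24 and 17.2 ± 0.769 CPM (0.019 ± 0.25; 0.61 ± 0.27 without LPS libraries 1, 2 and 3). It was lowest in LPS library 4, at 7.04 CPM. The estrogen-related receptor gene Esrra had 60.1 ± 8.47 and 56.5 ± 11.7 CPM (-0.089 ± 0.15).

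Of 112 other genes of fatty acid uptake, acyl-CoA metabolism, peroxisomal oxidation, ketone transport, lipid droplets and their regulation, 107 were tested and 0 passed in edgeR. At an unadjusted p under 0.05, 1 was higher, against 5.26% of all genes, and 13 were lower, against 5.88%. Fold changes were negative in 69 of the 107, with a median of -0.10. Without baicalin plus LPS libraries 2 and 3, 51 of the 107 were negative and the median was 0.0069. At an unadjusted p under 0.05, 6 were then higher and 6 lower. With all libraries, DESeq2 called 2 of the 107 lower, Plin3 and Pdk2, and 1.58% of all genes in either direction. Plin3, a droplet coat protein found in most tissues, had 109, 103, 126, 80.3 and 77.1 CPM in the LPS libraries and 60.4, 74.6, 75.4, 65.1 and 59.9 CPM in the baicalin plus LPS libraries. The highest values were those of LPS libraries 1, 2 and 3, and the lowest LPS value lay just above the highest with baicalin. Its fold change was -0.56 ± 0.15 (SE, n = 5 per group, edgeR adjusted p = 0.299) with all libraries and -0.22 ± 0.14 without LPS libraries 1, 2 and 3. Pdk2, a pyruvate dehydrogenase kinase, had -0.42 ± 0.12, the propionyl-CoA carboxylase subunit gene Pccb -0.40 ± 0.12, and Acot7, a cytosolic acyl-CoA thioesterase gene, -0.31 ± 0.11. Pdk4, a kinase gene known as a PPAR target that restrains glucose oxidation, had 1089.5, 1389, 1305, 3948 and 3189.7 CPM in the LPS libraries and 2109, 142, 105, 3234 and 1494 CPM in the baicalin plus LPS libraries. Baicalin plus LPS libraries 2 and 3 stood far below the other 8, as for Ucp3. The fold change was -0.62 ± 0.81 (SE, n = 5 per group, edgeR adjusted p = 0.807) with all libraries and 0.061 ± 0.47 without the pair. Without LPS libraries 1, 2 and 3 it was -1.32 ± 1.04. Angptl4, a secreted inhibitor of lipoprotein lipase and likewise known as a PPAR target, had 5.65, 12.9, 7.12, 144 and 80.1 CPM in the LPS libraries and 40.1, 1.97, 2.71, 74.4 and 36.4 CPM in the baicalin plus LPS libraries. It was low in baicalin plus LPS libraries 2 and 3 and also in LPS libraries 1, 2 and 3. Its fold change was -0.69 ± 1.09 (SE, n = 5 per group, edgeR adjusted p = 0.849) with all libraries. Without the former pair it was 0.0069 ± 1.01, and without the latter 3 it was -1.84 ± 1.06.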

How the data were processed

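Per the labels, total RNA of heart tissue was extracted with TRIzol and made into libraries with an ABclonal mRNA-seq kit. The submitters' processing notes name the mm10 build, while aligner, counting program and strand setting were not given in the sources used here. Whole-number read counts per Ensembl gene ID, with no normalization, were what the authors deposited. They also deposited FPKM values, which equal those counts divided by library total and a fixed length for each gene. All columns of both tables were mapped to a sample.

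Symbols and coordinates came from GENCODE M21 on GRCm38 (31076 of 31655 IDs named). The 40 members, the other lists and the libraries left out were chosen with earlier results of these data known. Library values are given, by role, for the 2 members of smallest p and the one of highest mean FPKM, or all of a role of 3. Others are marked as chosen after their values were seen. Of the other pathway genes, Pdk4, Angptl4 and the 4 of smallest p are named, and 2 genes are not reported here.

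The groups were compared on these counts in edgeR 4.0.16 under R 4.3.3, by quasi-likelihood (TMM, robust, filtered by group), two-sided, with Benjamini-Hochberg adjustment over the 16850 genes tested and a threshold of 0.05. Standard errors came from the F statistic. No library was counted as a duplicate, since counts of 2 libraries of the same group differed by a chi-square of at least 15.2 per degree of freedom. Pairs among LPS libraries 1, 2 and 3 were the closest, at 15.2 to 20.7, against 28.6 to 442 for the other pairs within a group. Libraries of different groups were not compared in this way. The script was tested on simulated data, where it recovered 41% of the 2-fold and 100% of the 4-fold changes put in. A change of 2-fold or less can thus be missed. For genes with a wide spread between libraries, such as Acot1 with a standard error of 0.90, a larger change can be missed too. Alternatives were DESeq2 1.42.0 and its size factors, upper-quartile factors, no filter, limma 3.58.1 with quality weights or on log2(FPKM + 0.1), libraries left out, and the replicate number as a block.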

Additional observations from a re-analysis of the deposited data

Results flagged for a closer look

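In 4 of the 80 sets of 5 libraries (40 genes in 2 groups), 1 library lay far from the other 4, judged by its gap to the nearest of them over the whole range. Chance gives about 5% of sets, and 4 of 80 is 5.0%. LPS library 5 had 79.1 CPM of Mlycd, against 49.2 to 53.2 CPM in the other LPS libraries, and 369.8 CPM of Acadvl, against 290.6 to 301 CPM. LPS library 1 had 4.30 CPM of Etfb, against 3.23 to 3.49 CPM. Baicalin plus LPS library 5 had 52.4 CPM of Rxra, against 39.9 to 43.3 CPM in the other libraries of its group.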

How the results depend on the processing

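None of the 40 genes passed the threshold in edgeR or DESeq2 with all libraries, while limma-voom with quality weights called 11, so an alternative could turn a sign or add a call but end none. All 40 kept their sign with DESeq2 and with its size factors, and without a filter on low counts. Of the alternatives with all libraries, limma on log2(FPKM + 0.1) gave the opposite sign for Acsl1 (0.0018), Etfb (0.035), Etfdh (0.0085), Acaa2 (0.053), Acot1 (-0.11), Acot2 (-0.15) and Plin2 (0.21), with 26 negative members, upper-quartile factors for Etfb (0.0067), Etfdh (0.0067) and Acaa2 (0.028), and quality weights for Etfdh (0.00024), Acaa2 (0.12), Plin2 (1.13), Pnpla2 (0.27), Ppargc1b (-0.18) and Angptl4 (0.72). Without a filter 2 genes of the whole table were called, with DESeq2 267, of them 2 other pathway genes, and with quality weights 2975, of them 11 members and 30 other pathway genes.

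When baicalin plus LPS libraries 2 and 3 were left out, the median of the members turned to 0.11, with 11 negative members, and the opposite sign was found for Acsl1 (0.23), Cpt1b (0.35), Cpt2 (0.10), Mlycd (0.22), Acadm (0.12), Acads (0.028), Etfb (0.15), Etfdh (0.24), Hadh (0.015), Acaa2 (0.20), Acot13 (0.033), Ucp3 (0.64), Acat1 (0.082), Plin2 (0.030), Plin5 (0.30), Pnpla2 (0.089), Lipe (0.22), Esrra (0.054), Pdk4 (0.061) and Angptl4 (0.0069). Without LPS libraries 1, 2 and 3 it was found for Acsl1 (0.056), Cpt1a (-0.45), Acadm (0.22), Etfb (0.11), Hadha (-0.092), Hadhb (-0.024), Hadh (0.13), Echs1 (0.0080), Eci2 (-0.013), Acot1 (-0.92), Acot2 (-0.63), Acot13 (0.082), Ucp2 (-0.55), Bdh1 (0.37), Oxct1 (0.41), Ppara (0.36), Ppargc1a (0.69), Esrra (0.12), Saa3 (-1.27), Lcn2 (-0.99) and Serpina3n (-0.87). That fit keeps 2 LPS libraries. On the FPKM scale, baicalin plus LPS libraries 2 and 3 were the lowest pair for 13 members, and LPS libraries 1, 2 and 3 the 3 highest for 3 (3.26% of all genes) and the 3 lowest for 4 (17.6%).

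The correlation of deviations between libraries of the 2 groups with the same replicate number ran from -0.10 to 0.076. It showed no clear pairing, but libraries of different number were not compared, so a weak pairing could have been missed. With the number as a replicate block over the 8 libraries that share one, 0 genes and 0 members were called, the median of the members was -0.27 with 33 negative, and the sign was opposite for Acadvl (-0.091), Hadhb (-0.12), Eci2 (-0.037), Acot1 (-0.13), Acot2 (-0.30), Plin2 (0.57), Pnpla2 (0.042) and Ppargc1b (-0.15).

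Leaving out 1 library at a time, 0 genes of the whole table were called, the median of the members ran from -0.31 to -0.0016 and the number of negative members from 20 to 37. The fold change took both signs for Etfb (-0.12 to 0.10), Acot1 (-0.68 to 0.62), Acot2 (-0.36 to 0.37), Saa3 (-0.28 to 1.05), Lcn2 (-0.24 to 1.73), Acaa2 (-0.13 to 0.12), Ucp3 (-0.71 to 0.26), Plin2 (-0.70 to 0.47), Pnpla2 (-0.48 to 0.10), Ppargc1b (-0.18 to 0.16), Angptl4 (-1.30 to 0.23), Acsl1 (-0.22 to 0.087), Mlycd (-0.44 to 0.018), Etfdh (-0.19 to 0.10), Plin5 (-0.60 to 0.036), Cpt1b (-0.44 to 0.067), Esrra (-0.20 to 0.00013), Cpt1a (-0.041 to 0.46), Acadvl (-0.051 to 0.22), Hadha (-0.052 to 0.26), Hadhb (-0.066 to 0.17), Eci2 (-0.046 to 0.35) and Ucp2 (-0.062 to 0.55). The cause of these changes was not tested. The common biological coefficient of variation was 31.4%. At the lowest depth, Acot1, Cpt1b and Etfb had 101, 102 and 133 counts in a library, and between 61.6% and 64.7% of counts up to 50 were even numbers, so a count is not an independent fragment.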

Other observations

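Values for some neighbouring branches of metabolism follow, on lists chosen with earlier results of these data known. Of 24 genes of mitochondrial acyl-CoA metabolism outside the 40, which serve mostly branched-chain and odd-chain acyl groups (Ivd, Acad8, Pcca, Pccb and Mut among them), 21 were negative, and their median log2 fold change was -0.24 against -0.0038 over all genes. At an unadjusted p under 0.05, 7 of them were lower with baicalin, among 5.88% of all genes, and 0 passed the adjustment in edgeR. LPS libraries 1, 2 and 3 were the 3 highest for 11 of the 24, against 9.55% of all genes. Of the 10 cardiomyocyte markers, 8 were negative, with a median of -0.33 and 4 lower at an unadjusted p under 0.05. The same 3 libraries were the highest for 6 of 10. The marker sum ran from 36515 to 74227 CPM in the LPS group and from 41655 to 51475 CPM with baicalin. Within the baicalin plus LPS group the 2 lists did not run together. Libraries 2 and 3 had the lowest sums of the 24 genes, 1103 and 1012 CPM, against 1212 and 1269 CPM in libraries 1 and 7. Their marker sums were 51475 and 47332 CPM, against 41941 and 41655 CPM. The part of cardiomyocyte content in the values of the 24 genes was not tested. Of 21 other regulators of fatty acid use, 17 were negative (median -0.14), 3 of them at an unadjusted p under 0.05.

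The uptake and binding genes leaned the other way. Of 19 tested, 12 were positive, the median was 0.15 and 0 were at an unadjusted p under 0.05, and LPS libraries 1, 2 and 3 were the 3 lowest for 6 of them, against 9.61% of all genes. The 17 genes of peroxisomal oxidation were split, with 7 negative, 10 positive and a median of 0.056.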
